A study of Homo sapiens with 6 samples.

Results

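The HaCaT line consists of human keratinocytes, the main cells of the epidermis, that grow without limit in culture. For 48 hours, cells received either an *ATF7* lentivirus (LV-*ATF7*) or a negative control virus (LV-NC). All cells were then kept in high glucose for 24 hours, so high glucose is shared by both groups. Poly(A) RNA was sequenced from 3 libraries per group, and whether the libraries came from separate cultures is not given in the sources used here, so the spread between them may be technical. The transcription factors *TP63*, *SOX2*, *KLF4*, *KLF5*, *TFAP2A* and *TFAP2C* were taken from the deposited count table by their symbols, and all 6 were among its 12499 genes. They were picked with results of the same comparison known, so their differences between the groups are given as a description, without a test.

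These factors set and maintain the squamous epithelial lineage. p63, the product of *TP63*, is the regulator without which stratified epithelia such as the epidermis do not form, and it holds basal keratinocytes in a proliferative state. SOX2 is best known from pluripotent stem cells, and it is also used by the esophagus and by squamous cell carcinomas, where it is often amplified together with *TP63*. KLF4 is needed for the skin barrier and acts late in differentiation, whereas its relative KLF5 is found mainly in dividing basal cells. AP-2α (*TFAP2A*) and AP-2γ (*TFAP2C*) start the surface ectoderm program and bind next to p63 at many epidermal enhancers.

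The libraries held 16686472 to 20562768 counts. No gene in the deposited table had fewer than 51 counts in total, so absence from it does not show that a gene had no reads. *ATF7*, the overexpressed gene, was at 46.4 to 52.2 CPM (read counts scaled to library size) in LV-NC libraries and 21.9 to 28.0 CPM in LV-*ATF7* libraries, so it went against the labels. Of its exon bases, 43.8% are shared with other genes, and how such reads were counted is not given in the sources used here. Groups are therefore named by their label only, and each direction below is that of the labels. For the 6 factors, LV-NC replicate 1 was 0.909 to 1.93 times the mean of LV-NC replicates 2 and 3. It lay further from them for some other genes named below, such as *KRT19*, at 172.4 CPM against 537.8 and 495.1 CPM. CPM values are scaled by the TMM method, which brings the median log2 difference of all 12462 genes tested to 1.62e-04. Scaling by library size alone would move that median to -0.16.

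The upstream sequences of 3 factors are shown: *TP63* and *SOX2*, which had the largest differences between the groups, and *KLF4*, as the one factor with a RefSeq match that was lower in LV-*ATF7* (*TFAP2C* was not matched). They are the 250 bases before the start given by RefSeq on GRCh38.p14, written 5′ to 3′ on the strand of the gene. Capitals mark a GC box (GGGCGG, the element bound by the Sp and KLF families) or an AP-2 motif (GCCNNNGGC), on either strand. A GC box occurred in 42.6% and an AP-2 motif in 19.8% of 34788 upstream windows of this length.
TP63, chr3:189631139-189631388, plus strand: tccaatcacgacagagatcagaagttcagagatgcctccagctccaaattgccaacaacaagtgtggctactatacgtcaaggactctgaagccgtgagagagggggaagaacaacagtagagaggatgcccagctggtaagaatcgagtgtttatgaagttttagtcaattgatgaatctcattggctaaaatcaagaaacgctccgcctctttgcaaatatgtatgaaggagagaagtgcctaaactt
SOX2, chr3:181711675-181711924, plus strand: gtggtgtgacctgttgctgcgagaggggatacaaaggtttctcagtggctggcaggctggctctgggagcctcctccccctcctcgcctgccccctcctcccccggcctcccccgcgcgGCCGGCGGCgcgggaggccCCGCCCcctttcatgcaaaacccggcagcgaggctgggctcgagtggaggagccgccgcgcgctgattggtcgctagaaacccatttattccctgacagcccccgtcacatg
KLF4, chr9:107489770-107490019, minus strand: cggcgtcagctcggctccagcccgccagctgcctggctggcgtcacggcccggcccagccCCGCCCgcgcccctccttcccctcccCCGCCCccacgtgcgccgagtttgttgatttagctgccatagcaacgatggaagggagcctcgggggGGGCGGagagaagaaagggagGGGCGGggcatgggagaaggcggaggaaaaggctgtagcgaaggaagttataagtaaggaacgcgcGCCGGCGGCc

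The 3 windows differed in composition. G and C made up 44% of the *TP63* window, 68.8% of the *SOX2* window and 69.2% of the *KLF4* window, against a median of 58% over all windows. CpG dinucleotides numbered 6, 20 and 25 in the same order, against a median of 11. The *TP63* window held no GC box and no AP-2 motif, that of *SOX2* held 1 of each, and that of *KLF4* held 4 GC boxes and 1 AP-2 motif. The cAMP response element TGACGTCA, the site of the ATF family, was found in 1.64% of all windows and the AP-1 site TGACTCA in 4.21%. Neither lay in any of the 7 windows found here for the 5 factors that were matched, with 2 windows each for *KLF5* and *TFAP2A*. This says only that these letters are not in these windows. The *TP63* window lies before the most upstream start, and GENCODE release 29 lists 8 different starts for this gene spread over 158385 bases. Counts per gene do not separate the long TA form from the shorter ΔN form that starts inside the gene. The bases before the ΔN start were not searched, so nothing above describes that promoter.

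*TP63* (ENSG00000073282; chromosome 3, 189631416 to 189897279, plus strand of GRCh38 in GENCODE release 29) measured 18.3, 12.6 and 15.7 CPM in LV-NC replicates 1, 2 and 3. In the LV-*ATF7* libraries it was at 238.1, 237.2 and 219.0 CPM. The lowest LV-*ATF7* library was thus far above the highest LV-NC library, and the transcript was low in LV-NC but detected there, at 240 to 341 counts per library. The means were 15.5 ± 2.84 and 231.5 ± 10.8 CPM (SD, n = 3 each), a log2 fold change of 3.90 (standard error 0.15). None of its exon bases are shared with another gene.

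*SOX2* (ENSG00000181449; chromosome 3, 181711924 to 181714436, plus strand) showed the largest difference of the 6 factors. It measured 2.30, 1.36 and 1.10 CPM in LV-NC, from 43, 26 and 19 counts, and 73.0, 68.9 and 63.6 CPM in LV-*ATF7*, from 1308, 1352 and 1151 counts. The groups did not overlap, and the few counts in LV-NC make the size of the fold less exact than for *TP63*. The log2 fold change was 5.42 (standard error 0.23), rank 93 by absolute size among the 12462 genes tested, where *TP63* held rank 282. Without LV-NC replicate 1, the LV-NC library with the highest *SOX2*, it was 5.76.

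The KLF factors differed in opposite directions. *KLF4* (ENSG00000136826; chromosome 9, 107484852 to 107490482, minus strand) measured 212.9 CPM in LV-NC replicate 1, 107.7 and 112.4 CPM in replicates 2 and 3, and 65.8 to 67.3 CPM in the LV-*ATF7* libraries. Every LV-*ATF7* library was below every LV-NC library, and LV-NC replicate 1 was 1.93-fold above the other LV-NC libraries. The log2 fold change was -1.11 (standard error 0.25) with that library and -0.74 (standard error 0.076) without it. *KLF5* (ENSG00000102554; chromosome 13, 73054976 to 73077542, plus strand) measured 113.2, 121.7 and 127.3 CPM in LV-NC and 267.8, 258.6 and 243.5 CPM in LV-*ATF7*. The log2 difference was 1.09 (standard error 0.090), and it varied little within either group.

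The AP-2 factors also differed in opposite directions. *TFAP2C* (ENSG00000087510; chromosome 20, 56629302 to 56639283, plus strand) measured 195.7, 140.2 and 140.5 CPM in LV-NC and 74.3, 76.3 and 77.9 CPM in LV-*ATF7*. The groups were apart, with a log2 fold change of -1.06 (standard error 0.14). *TFAP2A* (ENSG00000137203; chromosome 6, 10393186 to 10419659, minus strand) showed the smallest difference, with 116.5, 91.6 and 93.4 CPM in LV-NC and 131.1, 138.7 and 140.8 CPM in LV-*ATF7*. The log2 difference was 0.45 (standard error 0.11), below the median absolute log2 fold change of 0.67 over all genes tested. Scaled by library size alone it was 0.28. Of its exon bases, 16.7% are shared with the antisense genes *TFAP2A-AS1* and *TFAP2A-AS2*, and strandedness of the counting is not given in the sources used here.

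All 6 factors passed the expression filter. All 6 also had groups that did not overlap, as did 72.7% of all genes tested, and all 6 had an adjusted p under 0.05, as did 67.6% of all genes tested. Since the factors were chosen from this comparison, nothing is read from these counts. Each kept its direction in all 13 alternative settings. These reuse the same libraries, and a sign could hardly turn where groups did not overlap, so this is no independent support. The spread between replicates, as the SD of log2 CPM pooled over both groups, ran from 0.078 for *KLF5* to 0.39 for *KLF4*, against a median of 0.18 over all genes. It was larger in LV-NC than in LV-*ATF7* for each of the 6 factors.

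**Figure D1:**
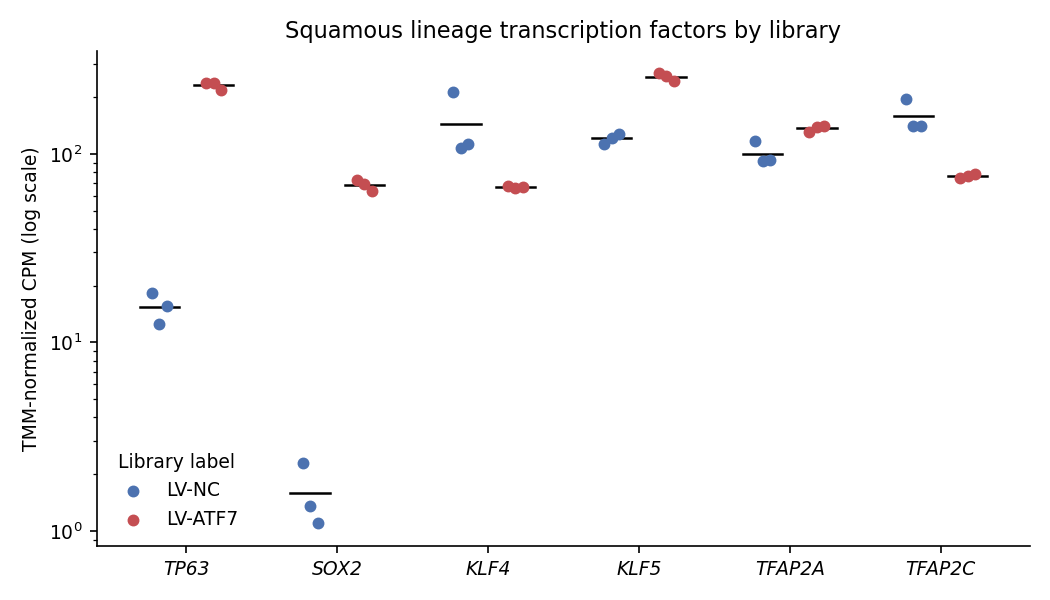
TMM-normalized CPM on a log axis for the 6 transcription factors, 1 point per library in replicate order from left to right and a bar at the mean of each group. *TP63* and *SOX2* in LV-NC lie far below LV-*ATF7*, at means of 15.5 and 1.59 CPM, and LV-NC replicate 1 stands above its group for *KLF4*, at 212.9 CPM.

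**Figure D2:**
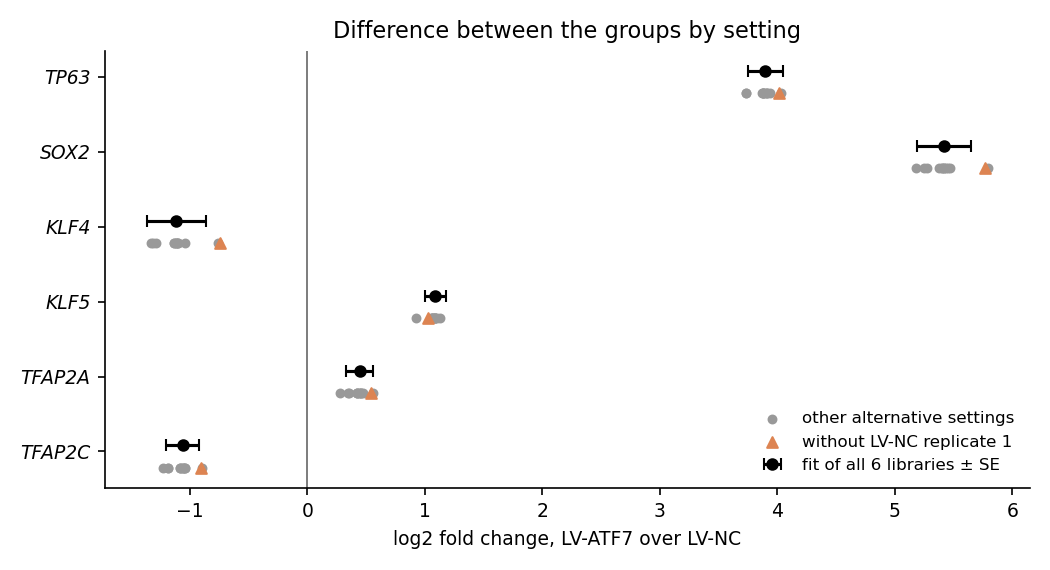
Log2 ratio of the LV-*ATF7* to the LV-NC level for each factor, with black points and bars for the fit of all 6 libraries ± standard error, gray points for the other alternative settings and an orange triangle for the fit without LV-NC replicate 1. No setting crosses 0, though all reuse the same libraries, and leaving out LV-NC replicate 1 takes *KLF4* from -1.11 to -0.74.

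Levels of different genes were compared per kilobase of exons, with each exon base counted once. In LV-NC, *TFAP2C* was highest at 52.9 ± 10.6 CPM per kilobase (SD, n = 3), then *KLF4* at 39.4 ± 16.2, *KLF5* at 31.0 ± 1.83, *TFAP2A* at 12.1 ± 1.68, *TP63* at 2.08 ± 0.38 and *SOX2* at 0.63 ± 0.25. Neighbors in this order overlapped between libraries for *TFAP2C* and *KLF4* and for *KLF4* and *KLF5*, although *TFAP2C* was above *KLF4* within each library. All *TFAP2C* libraries were above all *KLF5* libraries, and *KLF4* was above *KLF5* only in LV-NC replicate 1. In LV-*ATF7*, *KLF5* was highest at 65.9 ± 3.16 CPM per kilobase (SD, n = 3), then *TP63* at 31.1 ± 1.44, *SOX2* at 27.3 ± 1.87, *TFAP2C* at 25.3 ± 0.58, *KLF4* at 18.2 ± 0.22 and *TFAP2A* at 16.5 ± 0.62. Here *SOX2* and *TFAP2C* overlapped.

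Set against all 12448 genes with an annotated exon length, *TP63* held rank 9065 by level per kilobase in LV-NC and rank 1461 in LV-*ATF7*. *SOX2* held rank 10785 and rank 1707. Both went from the lower part of the expressed genes to levels like those of the KLF and AP-2 factors. In contrast, *KLF4* held rank 1069 in LV-NC and rank 2735 in LV-*ATF7*, so it was well expressed in both groups.

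Ratios within a library do not depend on the scaling between libraries. Per exon length, *KLF5* over *KLF4* was 0.50, 1.06 and 1.06 in LV-NC replicates 1, 2 and 3 and 3.74, 3.69 and 3.42 in LV-*ATF7*. The ratio was thus lowest in LV-NC replicate 1 and highest in the LV-*ATF7* libraries. *TFAP2A* over *TFAP2C* was 0.22 to 0.24 in LV-NC and 0.64 to 0.66 in LV-*ATF7*, so AP-2γ mRNA exceeded AP-2α mRNA in all 6 libraries. *TP63* over *SOX2* was 2.67 to 4.81 in LV-NC and 1.10 to 1.16 in LV-*ATF7*. These ratios depend on the length used: from the deposited FPKM, *TP63* over *SOX2* was 0.67, 0.79 and 1.21 in LV-NC replicates 1, 2 and 3 and 0.28 to 0.29 in LV-*ATF7*, so *TP63* was then the lower of the pair in 5 of 6 libraries. *KLF5* over *KLF4* from the FPKM was 0.75, 1.60 and 1.61 in LV-NC and 5.16 to 5.65 in LV-*ATF7*.

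**Figure D3:**
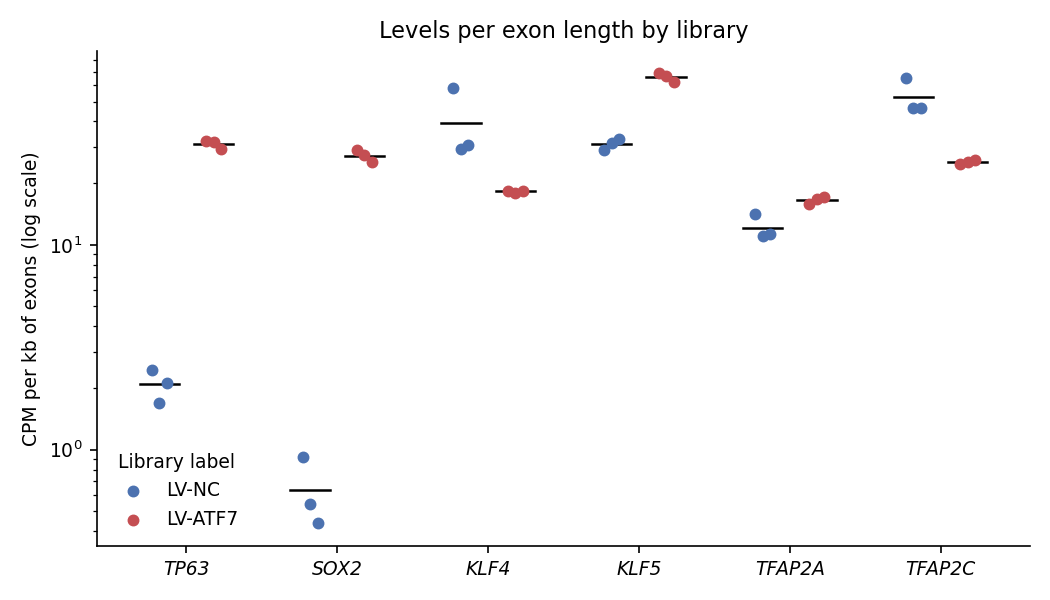
TMM-normalized CPM per kilobase of exons on a log axis, 1 point per library and a bar at the mean of each group. The 6 factors span 0.63 to 52.9 CPM per kilobase by group mean in LV-NC and 16.5 to 65.9 in LV-*ATF7*.

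Other genes are given from lists written from general knowledge, but with earlier results of these data known. Their p-values come from the edgeR fit of all 12462 genes, adjusted by Benjamini-Hochberg. Of all genes tested, 34.7% were called higher and 32.9% lower in LV-*ATF7* at an adjusted p under 0.05. No list was tested as a set, and a list's share of calls is a description.

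Relatives of the 6 factors came first. Of 36 genes listed from the families of the 6 factors, 21 were in the table, 10 rose, 2 fell and 9 did not pass the test, or 57.1% called against 67.6% of all genes. *TP73*, the paralog whose protein is closest to p63, was at 0.61 ± 0.29 CPM in LV-NC and 19.8 ± 1.06 CPM in LV-*ATF7* (mean ± SD of 3 libraries per group). It was low in every LV-NC library, and its log2 fold change was 5.02 (edgeR, adjusted p = 3.66e-06).

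Among the SOX genes, *SOX7* rose by 2.77 and *SOX12* by 2.58 on the log2 scale (edgeR, adjusted p = 8.16e-06 and 6.13e-06). *SOX7* shares 39.4% of its exon bases with other genes. *SOX15*, a SOX gene known from keratinocytes, was at 69.8, 150.3 and 158.1 CPM in LV-NC and 132.5 to 159.8 CPM in LV-*ATF7*, and *SOX4* was at 84.7 to 152.3 CPM in LV-NC and 92.8 to 100.1 CPM in LV-*ATF7*. Both had overlapping groups and did not pass the test (edgeR, adjusted p = 0.566 and 0.425). In the KLF family, *KLF2* fell by 3.02 and *KLF6* by 1.71 on the log2 scale (edgeR, adjusted p = 1.67e-04 and 3.58e-04). *KLF2* had only 13, 5 and 17 counts in LV-*ATF7*, so the size of its fold is less exact. *KLF6* resembled *KLF4* in being highest in LV-NC replicate 1, at 248.7 CPM against 135.6 and 138.9 CPM in replicates 2 and 3.

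The wider set of epidermal transcription factors had 37 of 42 genes in the table. Of these, 21 rose, 12 fell and 4 did not pass, or 89.2% called. *POU2F3*, a POU factor of the suprabasal epidermis, measured 0.37 to 0.96 CPM in LV-NC and 16.7 to 19.0 CPM in LV-*ATF7* (log2 fold change 4.68, edgeR adjusted p = 5.49e-06). *CEBPD*, which encodes a C/EBP factor, rose from 30.3 ± 6.27 to 429.1 ± 33.9 CPM (mean ± SD of 3 libraries per group, log2 difference 3.82, edgeR adjusted p = 1.66e-06). *PRDM1*, encoding the repressor BLIMP1 of the granular layer, rose by 3.29 on the log2 scale (edgeR, adjusted p = 4.78e-05). In the other direction, *OVOL1*, which restrains keratinocyte proliferation, fell by 2.16 and the AP-1 subunit gene *FOSL1* fell by 1.95 on the log2 scale (edgeR, adjusted p = 1.41e-04 and 4.11e-04). *OVOL1* shares 27.1% of its exon bases with other genes. *CEBPB* (log2 fold change -0.19, edgeR adjusted p = 0.353) and *RUNX1* (0.05, adjusted p = 0.731) did not pass.

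Regulators of the factor proteins moved about as often as genes in general, with 9 of 26 higher, 8 lower and 9 not passing, or 65.4% called. *KCTD15*, whose product inhibits AP-2α, was at 13.1 ± 7.11 CPM in LV-NC and 118.5 ± 1.97 CPM in LV-*ATF7* (mean ± SD of 3 libraries per group). The groups were far apart (log2 fold change 3.18, edgeR adjusted p = 8.44e-05). *NEDD4*, a ubiquitin ligase, rose by 2.41 and *UHRF1*, a chromatin factor that reads DNA methylation, by 1.63 on the log2 scale (edgeR, adjusted p = 3.63e-05 and 0.00345). *CITED2*, a coactivator of AP-2 factors, fell by 1.33 on the log2 scale (edgeR, adjusted p = 9.59e-06). The histone methyltransferase gene *KMT2D* and the remodeler gene *SMARCA4* did not pass, each with a log2 fold change of 0.31 (edgeR, adjusted p = 0.0761 and 0.0954).

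All 36 genes listed as p63 targets were in the table. By the labels, 23 rose, 10 fell and 3 did not pass, or 91.7% called, with a median log2 fold change of 0.61. The basal keratin gene *KRT5* measured 99.96, 355.5 and 343.8 CPM in LV-NC and 3224, 3215 and 3622 CPM in LV-*ATF7*. LV-NC replicate 1 was the lowest of the 6 libraries, and the log2 fold change was 3.65 (standard error 0.45, edgeR adjusted p = 1.89e-04). *JAG2*, a Notch ligand, rose by 2.99 and *IGFBP3*, which p63 is known to repress, by 2.89 on the log2 scale (edgeR, adjusted p = 2.11e-06 and 1.27e-06). *CDKN1A*, the p21 cell cycle inhibitor and a gene that p63 represses in keratinocytes, fell from 842.1 ± 17.1 to 163.1 ± 15.7 CPM (mean ± SD of 3 libraries per group, log2 difference -2.37, edgeR adjusted p = 1.89e-06). *PTHLH* fell by 2.05 on the log2 scale (edgeR, adjusted p = 1.83e-05). *PERP*, a desmosome gene, and *DST*, a hemidesmosome gene, did not pass (log2 fold change 0.29 and 0.48, edgeR adjusted p = 0.0609 and 0.0595).

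The p63 target list holds both genes that p63 activates and genes that it represses. *KRT5*, which p63 is known to activate, and *IGFBP3*, which it represses, were both higher in LV-*ATF7*. *KRT14*, the basal partner of *KRT5*, was low in all libraries, with 0.375, 12.5 and 11.3 CPM in LV-NC and 1.38 to 1.82 CPM in LV-*ATF7*. LV-NC replicate 1 lay below and replicates 2 and 3 above every LV-*ATF7* library, so its groups overlapped, although edgeR called it lower (log2 difference -2.37, standard error 0.91, adjusted p = 0.0461). This call was lost in 7 of 12 alternatives, with DESeq2, with a replicate block and without any 1 library other than LV-NC replicate 1 (adjusted p up to 0.128). Reads of near-identical keratin copies can be split between genes, which makes this value uncertain. It was named after its values were seen.

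**Figure D4:**
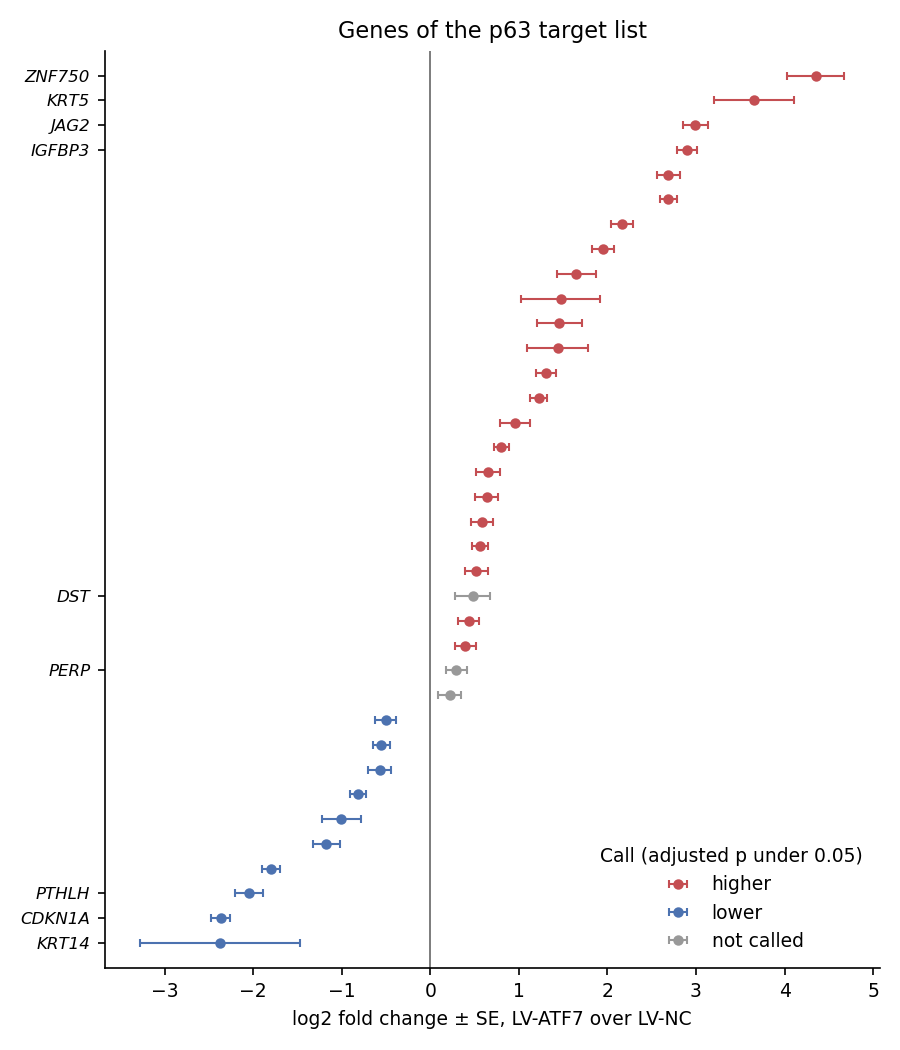
Log2 ratio of the LV-*ATF7* to the LV-NC level with its standard error for the 36 genes listed as p63 targets. Colors give edgeR's call at an adjusted p under 0.05, and names are shown for the genes given in the p63 target paragraphs and for *ZNF750*. The 23 genes called higher and the 10 called lower run from 4.35 for *ZNF750* to -2.37 for *KRT14*. *ZNF750* had only 5, 2 and 5 counts in LV-NC replicates 1, 2 and 3, so the size of its fold is less exact.

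Of 25 genes listed as KLF or AP-2 targets, 17 were in the table, 9 rose, 5 fell and 3 did not pass, or 82.4% called. *CRABP2*, a retinoic acid binding protein gene, rose from 4.43 ± 1.15 to 61.0 ± 5.03 CPM (mean ± SD of 3 libraries per group, log2 difference 3.78, edgeR adjusted p = 3.35e-06). *MUC1*, a membrane mucin gene, rose by 3.61 and the keratin gene *KRT19* by 3.34 on the log2 scale (edgeR, adjusted p = 1.75e-06 and 1.62e-04). *ECM1*, encoding an extracellular matrix protein, fell by 2.64 and *IVL*, encoding the cornified envelope protein involucrin, by 2.11 on the log2 scale (edgeR, adjusted p = 9.79e-04 and 0.00151). *CDKN1A*, described above, is on this list too, as a gene that KLF4 activates. *CDH1* and *ERBB3* did not pass (log2 fold change -0.23 and 0.27, edgeR adjusted p = 0.137 and 0.157).

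Of 38 terminal differentiation genes listed, 19 were tested. The others, *KRT1* and *DSG1* among them, were not found in the table under the symbols listed. Of the 19, 12 rose, 5 fell and 2 did not pass, or 89.5% called, with a median log2 fold change of 1.48. Some of these calls rest on very low counts in 1 group. *HRNR* had 1, 2 and 0 and *FLG2* had 0, 1 and 2 counts in LV-NC, so both passed the filter only through LV-*ATF7*. *ALOXE3*, called lower, had 5, 7 and 10 counts in LV-*ATF7*. The mucosal keratin genes *KRT4* and *KRT13* rose by 5.52 and 4.65 on the log2 scale (edgeR, adjusted p = 6.14e-05 and 6.26e-04), with LV-NC replicate 1 lowest for both, at 0.75 and 38.7 CPM. *SPINK5*, a protease inhibitor gene of the granular layer, rose by 3.94 (edgeR, adjusted p = 7.06e-06). It had only 11, 22 and 19 counts in LV-NC, so the size of its fold is less exact. *IVL*, the plakin gene *PPL* and the suprabasal keratin gene *KRT10* fell, the last from 109.9 ± 7.85 to 75.3 ± 1.26 CPM (mean ± SD of 3 libraries per group, log2 difference -0.55, edgeR adjusted p = 9.61e-04). *KLK5* (log2 fold change -0.18, edgeR adjusted p = 0.428) and *CNFN* (0.93, adjusted p = 0.105) did not pass.

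*TP63* and *SOX2* both lie on the distal long arm of chromosome 3, a segment often gained as a whole in squamous cancers. Of 32 other genes listed from this arm, 31 were tested, of which 9 rose, 11 fell and 11 did not pass. This was 64.5% called, against 67.6% of all genes. *CLDN1*, a tight junction gene, rose from 244.3 ± 61.7 to 2172 ± 70.3 CPM (mean ± SD of 3 libraries per group, log2 difference 3.15, edgeR adjusted p = 5.69e-06), and *IGF2BP2* and *LPP* rose by 1.30 and 1.25 on the log2 scale (edgeR, adjusted p = 9.99e-04 and 5.30e-04). *SERPINI1* fell by 5.64, *ETV5* fell by 3.35 and *PSMD2*, a proteasome gene, fell by 1.33 (edgeR, adjusted p = 2.20e-06, 1.09e-05 and 0.00115). *SERPINI1* had only 19, 20 and 12 counts in LV-*ATF7*, so the size of its fold is less exact. *EIF4G1* and *DVL3* did not pass (log2 fold change 0.19 and -0.17, edgeR adjusted p = 0.233 and 0.178). Genes of the arm were found on both sides, as were genes in general (34.7% called higher and 32.9% lower). The copy number of the segment was not measured here, and its part in these differences was not tested.

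**Figure D5:**
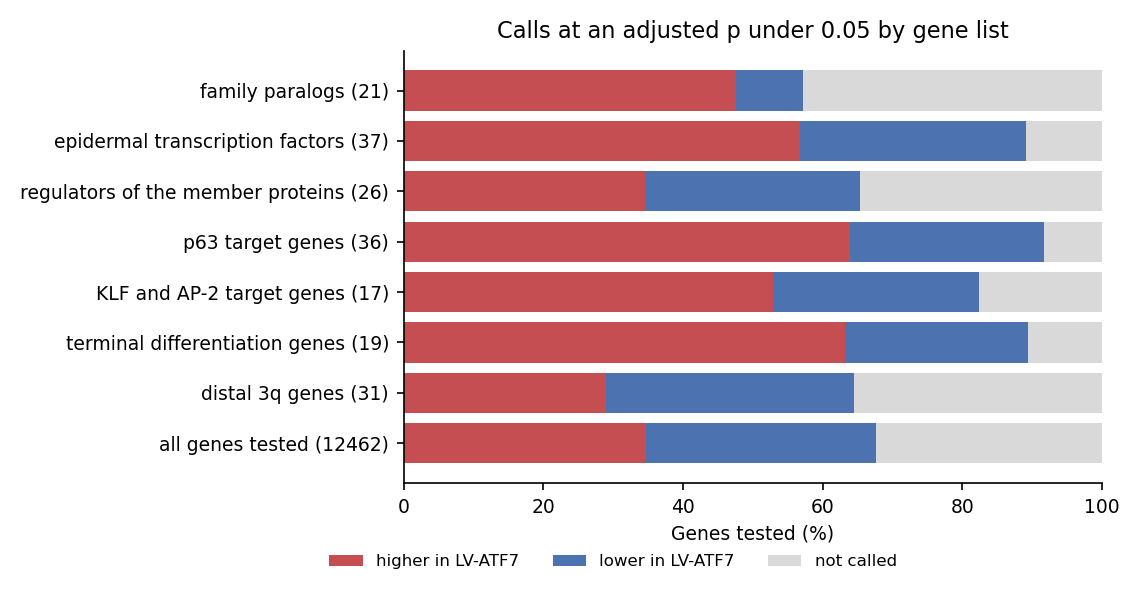
Share of the genes tested in each list that were called higher or lower in LV-*ATF7* or not called at an adjusted p under 0.05, with the number tested in parentheses and all 12462 genes tested in the last bar. Called shares run from 57.1% for the family paralogs to 91.7% for the p63 targets, against 67.6% of all genes. The lists were written with earlier results of these data known.

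For each factor, the genes with the most similar profile were found as the smallest Euclidean distance between log2 CPM profiles over the 6 libraries, each centered on its mean, among the 11176 genes that averaged 50 counts or more. They were *GABRE* (distance 0.24) and *NEURL1B* (0.26) for *TP63*, *CYP24A1* (0.27) and *SLC28A3* (0.36) for *SOX2*, and *NOS1AP* (0.20) and *ZSWIM5* (0.22) for *KLF4*. For *KLF5* they were *CYB5B* (0.10) and *CUL4A* (0.11), for *TFAP2A* *LYN* (0.085) and *KREMEN1* (0.096), and for *TFAP2C* *MAST2* (0.11) and *ZNF333* (0.14). *GABRE* measured 8.02 to 10.4 CPM in LV-NC and 144.8 to 150.3 CPM in LV-*ATF7*, near the pattern of *TP63*. *CYP24A1* and *SLC28A3* were at 0 to 0.16 CPM in LV-NC, 3 counts or fewer per library, so they passed the count minimum only through LV-*ATF7*. Their LV-NC profile is set by the prior count of 2 added before the log, and their likeness to *SOX2* carries no weight.

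The label of the cells was compared with marker genes. Of 16 keratinocyte markers, 15 were tested, and their summed level ran from 2043 to 2861 CPM in LV-NC and from 7530 to 8241 CPM in LV-*ATF7*. The most abundant were *KRT5* and *SFN*, and none of the 15 was at 3 counts or fewer in every library. Simple epithelial markers, 8 of 9 tested and led by *KRT19* and *KRT8*, summed to 1619 to 3435 CPM in LV-NC and 7739 to 8777 CPM in LV-*ATF7*, with *KRT8* at a log2 difference of 0.03 (edgeR, adjusted p = 0.937). In LV-*ATF7* the largest members of these sums were *KRT5*, at a mean of 3353 CPM, and *KRT19*, at 4064 CPM. In LV-NC they were *DSC3* at 449.8 CPM and *KRT8* at 1202 CPM, with *KRT5* at 266.4 and *KRT19* at 401.8 CPM. The members of each list did not move as one. Of the 15 keratinocyte markers 7 rose, 2 fell and 6 did not pass, and of the 8 simple epithelial markers 4 rose, 2 fell and 2 did not pass. This was 60% and 75% called, against 67.6% of all genes. Genes in general were also called in both directions, 34.7% higher and 32.9% lower.

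Markers of other lineages in which some of the 6 factors also act were mostly low, and some moved with the groups. Pluripotent markers, 3 of 10 tested, summed to 13.1 to 14.6 CPM in LV-NC and 31.7 to 35.2 CPM in LV-*ATF7*, led by *SALL4* and *DNMT3B*, and the defining genes *NANOG* and *LIN28A* were not in the table. *SALL4* rose from 1.69 ± 0.09 to 20.8 ± 0.60 CPM (mean ± SD of 3 libraries per group, log2 difference 3.62) and *POU5F1* from 0.90 ± 0.28 to 3.63 ± 0.50 CPM (log2 difference 1.997, edgeR adjusted p = 4.13e-04), while *DNMT3B* did not pass (log2 difference -0.34, edgeR adjusted p = 0.0676). Of the 10 neural progenitor markers only *NES* was tested, and it rose from 0.43 to 0.79 CPM in LV-NC to 1.94 to 2.40 CPM in LV-*ATF7* (log2 difference 1.92, edgeR adjusted p = 8.45e-04). Melanocyte markers, 2 of 8 tested (*MITF* and *PMEL*), summed to 17.5 to 24.8 CPM in LV-NC and 12.2 to 12.99 CPM in LV-*ATF7*. They went opposite ways, with *MITF* lower by 1.21 and *PMEL* higher by 1.13 on the log2 scale (edgeR, adjusted p = 6.44e-04 and 0.00519). Mesenchymal markers, 6 of 15 tested and led by *FN1* and *COL1A1*, summed to 98.8 to 141.6 CPM and 77.0 to 84.3 CPM. Of these 6, 1 rose (*TWIST2*), 3 fell and 2 did not pass, *FN1* among the last. This was 66.7% called, against 67.6% of all genes.

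The endothelial markers tested and 2 of the 3 leukocyte markers tested also moved with the groups. *CDH5*, the VE-cadherin gene that defines endothelium, rose from 3.08 ± 2.18 to 84.4 ± 2.90 CPM (mean ± SD of 3 libraries per group, log2 difference 4.78, edgeR adjusted p = 6.90e-05). The 2 endothelial markers tested, *CDH5* and *VWF*, summed to 1.12 to 5.50 CPM in LV-NC and 84.6 to 89.9 CPM in LV-*ATF7*, and *PECAM1* and *KDR* were not in the table. The 3 leukocyte markers tested, led by *CD74* and *CD14*, summed to 44.9 to 245.6 CPM and 554.0 to 638.4 CPM, and *PTPRC* was not in the table. *CD74* was at 243.3 CPM in LV-NC replicate 1 and 44.9 and 40.2 CPM in replicates 2 and 3. *ITGAM* did not pass (log2 difference -0.41, edgeR adjusted p = 0.530). The part of these markers in the differences of the 6 factors was not tested. In bulk RNA, fewer cells that express a factor and less of its mRNA per cell cannot be told apart.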

How the data were processed

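Poly(A) RNA of 6 HaCaT libraries, 3 labeled LV-NC and 3 labeled LV-*ATF7*, was grouped by the deposited labels. Raw counts of reads were deposited by the authors for each gene, and GRCh38 is the build in the submitters' processing notes. The aligner, counter, annotation and strandedness are not given in the sources used here. The authors also deposited FPKM values, used only to compare the order of levels. The fold change ratio, log2 fold change and p-value columns that the authors deposited hold their own comparison and were not used. All count columns were matched to a sample.

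The main test was the quasi-likelihood F test of edgeR 4.0.16 in R 4.3.3, after TMM scaling and with the group as the only term. It covered the 12462 genes kept by filterByExpr (37 were not), and p-values were adjusted by Benjamini-Hochberg. Standard errors are |log2 fold change| over √F. Totals of 16686472 to 20562768 counts leave counting error small for all but low genes such as *SOX2* in LV-NC. Exon lengths, positions and overlaps are from GENCODE release 29 (12485 identifiers matched), and upstream sequences from RefSeq, GRCh38.p14.

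The 6 factors and all gene lists were chosen with earlier results of these data known. Named from each list were up to 3 genes with the largest rises and up to 3 with the largest falls among called genes whose groups did not overlap and that averaged 50 counts or more, and the 2 most abundant genes not called. The 2 most abundant genes were named for marker lists. Some genes that this rule names are not reported here. The alternatives were DESeq2 1.42.0, limma 3.58.1 (voom, sample quality weights), a block for the replicate number, scaling by upper quartile or by library size only, testing all genes or those with 10 or more counts in each library, and leaving out each library. Fits of 5 genes named outside the rule, and ratios of FPKM, were added after the data were seen. Replicate numbers were checked as pairs (closing section).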

Additional observations from a re-analysis of the deposited data

How the results depend on the processing

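All 6 factors kept their direction in each of the 13 alternatives, which reuse the same libraries. The log2 fold change ran from 3.73 to 4.03 for *TP63*, 5.18 to 5.79 for *SOX2*, -1.33 to -0.74 for *KLF4*, 0.93 to 1.13 for *KLF5*, 0.28 to 0.56 for *TFAP2A* and -1.23 to -0.90 for *TFAP2C*. It moved by more than the spread between replicates for *SOX2* with sample quality weights (5.79), and for *KLF5* (0.93) and *TFAP2A* (0.28) with library size only, a scaling that moves the median of all genes by a similar amount. With the deposited FPKM in place of CPM per exon length, *TP63* took place 6 and *SOX2* place 5 of 6 in LV-NC, with *KLF5* at 2 and *KLF4* at 3. In LV-*ATF7*, *SOX2* took place 2, *TFAP2C* place 3 and *TP63* place 4. Genes called numbered 7290 to 10474 and every list count stayed within 1.5 times of its value. With library size only, 42.4% of the calls were higher in LV-*ATF7*, against 51.3%. With a replicate block, 8210 genes were called, 8068 of them among the 8429 called without it. The correlation of deviations between same-numbered libraries was 0.058, -0.021 and 0.065. These values gave no sign of pairs, but with 3 libraries per group they cannot exclude them. Single genes were compared between the fits only if named from lists other than the marker lists, or among the 5 added outside the rule. Marker genes such as *POU5F1*, *MITF*, *PMEL*, *TWIST2*, *VWF* and *CD74* were not compared. Of the genes compared and called, *KRT14* alone lost its call, in 7 fits, and none reversed. Of those not called, 5 changed sign in 9 fits, at *SOX15* -0.13 and *SOX4* 0.13 with sample quality weights and *RUNX1* -0.12 with library size only. Leaving out 1 library gave -0.13 to 0.35 for *SOX15*, -0.39 to 0.096 for *SOX4*, -0.34 to 0.018 for *CEBPB*, -0.094 to 0.19 for *RUNX1* and -0.34 to 0.026 for *KLK5*. Genes that had not passed were called in 19 fits, 7 of them without LV-NC replicate 1. The low counts of *SOX2* in LV-NC limit the precision of its fold.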
